A study of Mus musculus with 6 samples.

Results

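The cyclin-dependent kinase inhibitor gene Cdkn1a and 9 further genes of the p53 pathway were followed across the cells of the proximal pulmonary artery (PA) of mice. The 10 genes, taken by symbol from the 53647 genes counted in each library, were Cdkn1a, Mdm2, Ccng1, Phlda3, Trp53inp1, Bax, Zmat3, Eda2r, Gdf15 and Trp53, and each was listed under 1 identifier. The first 9 are targets of the transcription factor p53, and Trp53 encodes p53 itself. Because Cdkn1a is widely read as a mark of senescence, the comparisons asked whether it was higher with age and whether its 8 fellow targets moved with it, between cell types and between cells of 1 type.

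Single cells came from the main PAs of wild-type C57BL/6J mice, excised with surrounding tissue and digested with collagenase and elastase. There were 2 libraries from young mice of 3 months and 4 from old mice of 20, 24, 27 and 28 months, with no treatment. Each library was captured in droplets, and RNA molecules were counted by their unique barcodes (UMIs) at the 3' ends of transcripts. Barcodes needed no fewer than 500 UMIs and 300 genes, with up to 20% of UMIs mitochondrial. Of the 15622 that passed, 296 were left out as doublets, which left 15326 cells.

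p53 is held at a low level by Mdm2, the ubiquitin ligase that marks it for destruction and is itself a p53 target. When DNA damage or other stress stabilizes p53, it binds DNA at pairs of short half-sites and raises genes that stop the cell cycle (Cdkn1a), repair damage or favour cell death (Bax). Cdkn1a can also be raised without p53, by growth factors, TGF-beta signalling and immediate early transcription factors, so its fellow targets are a separate readout of the pathway.

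The DNA before the start sites of the target genes shows where such half-sites lie. RefSeq windows from 250 bases before to 50 after each start on GRCm38.p6 were found for 8 of the 10 genes, in 10 windows. None was at hand for Trp53inp1 and Zmat3. A 10-base p53 half-site was found on either strand in 5 of the 10 windows, against 8.36% of all 32851 windows. The stretches that hold them are given because they differ in how many half-sites they carry and how far these lie from the start, each with 35 flanking bases and the half-sites in capitals, read along the gene's strand.
Cdkn1a, chr17:29090871-29090972, + strand: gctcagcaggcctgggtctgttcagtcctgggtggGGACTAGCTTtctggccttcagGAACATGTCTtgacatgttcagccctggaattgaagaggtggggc
Mdm2, chr10:117710900-117710979, - strand: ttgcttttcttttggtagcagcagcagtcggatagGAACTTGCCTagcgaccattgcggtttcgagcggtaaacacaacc
Ccng1, chr11:40755427-40755506, - strand: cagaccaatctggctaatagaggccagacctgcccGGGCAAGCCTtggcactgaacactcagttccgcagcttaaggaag
Bax, chr7:45467055-45467134, - strand: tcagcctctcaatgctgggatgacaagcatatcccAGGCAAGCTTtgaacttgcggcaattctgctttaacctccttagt
Trp53, chr11:69580249-69580328, + strand: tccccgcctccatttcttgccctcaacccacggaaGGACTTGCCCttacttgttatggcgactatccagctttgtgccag
The window of Cdkn1a held 2 half-sites, 73 and 51 bases before the start. Those of Ccng1, Mdm2 and Bax lay 185, 186 and 201 bases before it, and that of Trp53 75 bases before it. The windows of Phlda3, Eda2r and Gdf15 held none of these letters. A GC box (GGGCGG) was present for Bax, Cdkn1a, Eda2r, Mdm2 and Phlda3, against 35.7% of all windows, and a TATA box (TATAAA) for Eda2r and Trp53, against 13.6%. No binding was measured here, and a match is a description only.

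Cells were clustered without the 10 genes and the other listed pathway genes, so none of these defined a cell type, and clusters were named from marker genes. Fibroblasts (FBs), smooth muscle cells (SMCs), macrophages (MΦs) and mesothelial cells each had all of their markers highest in their own type, namely 10 of 10, 10 of 10, 10 of 10 and 6 of 6. Endothelial cells (ECs) had 7 of 10. One MΦ cluster had 6 of 10 MΦ markers raised, but its first leading genes were those of mast cells (Cma1, Mcpt4, Tpsb2 and Cpa3). Its 10 leading genes also held Klrd1, Chil3, Ear2 and Plbd1. When all MΦs were clustered again, the cluster led by the mast cell genes held 8 cells. Leaving out the larger cluster is thus not the same as leaving out mast cells. The larger cluster held 246 of 456 and 26 of 67 MΦs of the young libraries and 20 of 133, 270 of 392, 48 of 605 and 10 of 267 of the 20-, 24-, 28- and 27-month ones, and results in MΦs are given with and without it. Outside it, young MΦs lay mostly in another cluster, with 205 and 39 cells. That one held 0, 121, 0 and 1 cells of the old libraries in the same order. A further cluster held 390 and 213 cells of 28 and 27 months against 4 and 0 young ones. Another held 111 cells of 20 months against 1 and 1 young ones. Libraries held from 6355125 to 50436562 UMIs, of which from 24.3% to 86.4% lay in kept cells. The 24-month library shared 130 and 213 cell barcodes with the young libraries and these shared 155 with each other, mostly in airway epithelial cells, where chance gives 1.1 at most, so that type was not compared by age, and the share over all cells is given with and without it. Sex-linked genes were mixed in some libraries. The 20-month library held 3113 UMIs of Xist, made from the inactive X chromosome of females, and 8488 of the Y-linked Ddx3y, but 25, 17 and 77 of the Y-linked Eif2s3y, Kdm5d and Uty. The second young library held 1300 of Xist and 210 of Ddx3y. The main results are given with and without the 20-month library. Young libraries were thin. FBs numbered 92 and 29 in the young libraries and from 132 to 816 in the old ones, and 86 of 92 and 29 of 29 young FBs lay in 1 of the FB clusters, which held 129 of 132, 201 of 215, 69 of 816 and 34 of 495 FBs of the 20-, 24-, 28- and 27-month libraries. Likewise 79 of 83 and 58 of 62 young ECs lay in 1 EC cluster, against 46 of 674, 170 of 200, 84 of 801 and 39 of 294 old ones in the same order.

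Cdkn1a was highest in ECs, MΦs and mesothelial cells and lowest in B cells. Its level, as counts scaled to a fixed UMI total for each type and library (CPM), was 689, 556, 167 and 166 in ECs of the 20-, 24-, 28- and 27-month libraries and 490.1 and 251 in the young ones. In MΦs it was 573, 339.9, 116 and 253 in the old libraries and 608 and 498 in the young ones. FBs had 499, 301, 145 and 280.1 CPM in the old libraries and 209 and 47.8 in the young ones. The second young value rests on 1 UMI. SMCs were low, at 149, 61.9 and 157 CPM in the 20-, 28- and 27-month libraries, and the 24-month library held 3 SMCs only. The young SMCs, 22 and 28 cells, lay almost wholly in another cluster than the old ones. Their values of 49.4 CPM (1 UMI) and 0 are thus set beside the old ones without a test by age. A count of 0 there allows a level of up to 151 CPM. Mesothelial cells had 418, 175, 325 and 476 CPM in the old libraries and 126 in the first young one.

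**Figure D1:**
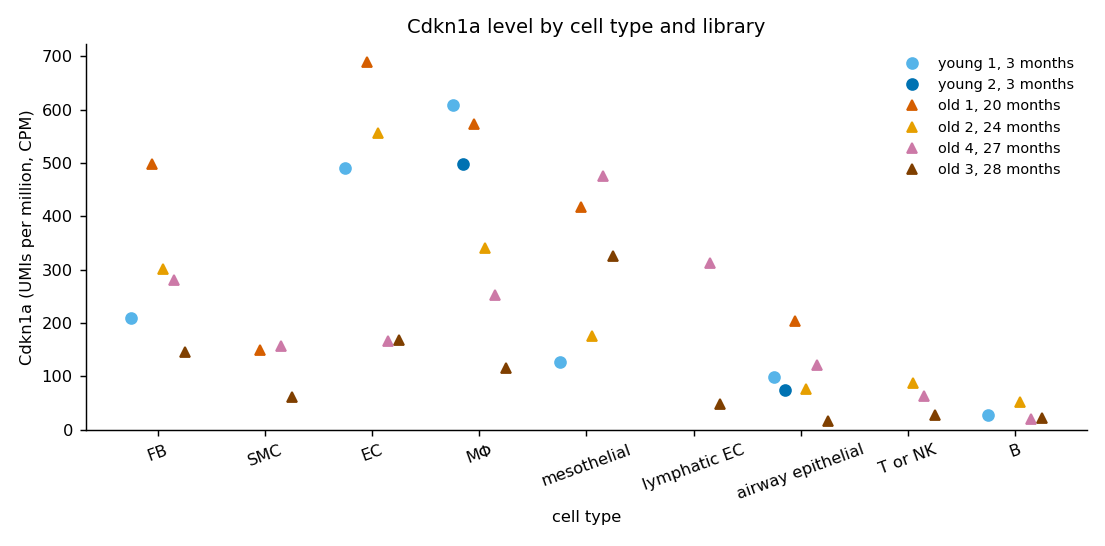
Cdkn1a level (CPM) in each cell type, with 1 point per library holding at least 50000 UMIs of that type. Medians ran from 25 CPM in B cells to 490 CPM in ECs, and libraries of 1 type spread about as widely as most types differ.

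In a fit across FBs, SMCs, ECs and perivascular MΦs with the library as a covariate, Cdkn1a was lower in SMCs than in each of the other 3 types. The young SMCs entered this fit too. Of them, 17 and 26 lay in a cluster with 9 of 10 SMC markers raised but none among its 10 leading genes. The difference of SMCs was -1.44 ± 0.31 (log2, SE) from ECs (adjusted p = 0.000522, edgeR's quasi-likelihood test with Benjamini-Hochberg adjustment over 10724 genes) and -1.07 ± 0.36 from perivascular MΦs (adjusted p = 0.0149). FBs exceeded SMCs by 1.06 ± 0.30 (adjusted p = 0.00656 by edgeR), a call that was lost with cells thinned to 1000 UMIs (0.99), with doublets kept (1.0) and without the 20-month library (0.87). FBs, ECs and perivascular MΦs did not differ in Cdkn1a beyond their spread, with differences from -0.38 to 0.37. Perivascular MΦs were named in the 28- and 27-month libraries only.

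Cell types differed in some of the other targets, and in another order. The counts of members that follow include Cdkn1a and Trp53. The members called numbered 4 of 9 tested between FBs and SMCs, where 34.5% of all genes were called, 4 between FBs and ECs (34.6%), 4 between FBs and perivascular MΦs (44.6%), 5 between SMCs and ECs (41.6%), 6 between SMCs and perivascular MΦs (50.5%) and 4 between ECs and perivascular MΦs (38.9%). These shares of the members are near those of all genes.

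Among the growth-arrest and survival targets, Phlda3, an inhibitor of Akt, was nearly absent from MΦs. It was at 0 to 8.95 CPM in MΦs, whereas FBs of the old libraries had 103, 45.1, 71.4 and 108 CPM and ECs 138, 21.1, 83.2 and 138 (20, 24, 28 and 27 months). Against perivascular MΦs it was higher by 4.48 ± 0.45 in FBs, 4.68 ± 0.45 in ECs and 3.33 ± 0.47 in SMCs (log2, SE; adjusted p = 7.67e-10, 3.4e-10 and 4.47e-07). SMCs were also below FBs (FBs higher by 1.15 ± 0.26, adjusted p = 0.000744, not called without the 27-month library at 0.91) and below ECs (-1.36 ± 0.26, adjusted p = 7.4e-05). Ccng1, which encodes cyclin G1, was high in mesothelial cells, at 99.4, 63.1, 161 and 183 CPM in the old libraries and 29.9 in the first young one. FBs exceeded ECs in Ccng1 by 1.43 ± 0.26 (adjusted p = 2.73e-05). Trp53inp1, which encodes a stress-induced nuclear protein, was higher in SMCs than in ECs by 2.10 ± 0.28 (adjusted p = 1.29e-07), with 19.5, 112 and 59.1 CPM in SMCs of 20, 28 and 27 months against 9.02, 21.5 and 12.2 in ECs. It was thus the type lowest in Cdkn1a of these 4 that was highest in Trp53inp1.

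The feedback and death genes were ordered differently again. Mdm2 was higher in perivascular MΦs than in FBs and SMCs, whose differences were -0.83 ± 0.27 and -0.85 ± 0.27 (adjusted p = 0.0112 and 0.00846 by edgeR). MΦs had 188, 190.3, 75.4 and 94.6 CPM of Mdm2 in the old libraries and 208 and 385 in the young ones. Bax, which permeabilizes the mitochondrial outer membrane in apoptosis, was lower in ECs (-0.82 ± 0.24) and SMCs (-0.68 ± 0.24) than in perivascular MΦs (adjusted p = 0.00645 and 0.0178). Zmat3, which encodes an RNA-binding protein, exceeded ECs in FBs by 1.29 ± 0.32 (adjusted p = 0.00153). Eda2r, a receptor of the tumor necrosis factor family, was not tested for low counts. Mesothelial cells had 39.8, 28.1, 69 and 47.4 CPM of it in the old libraries, and MΦs from 0 to 2.14. Gdf15, a secreted stress cytokine, was lower in FBs than in ECs (-1.27 ± 0.33, adjusted p = 0.00359) and than in perivascular MΦs (-2.63 ± 0.39, adjusted p = 3.41e-06). The first of these was lost without the 20-month library (-0.91). Its level was led by the 20-month library, with 244 CPM in ECs, 113 in MΦs, 108 in SMCs and 82.7 in FBs. Trp53 itself was called in 1 of the 6 contrasts, lower in SMCs than in ECs (-0.72 ± 0.26, adjusted p = 0.0267), and that call was lost without the 20-month (-0.41), the 28-month or the first young library. With 2 libraries of perivascular MΦs, leaving out the 28- or the 27-month library ended the calls of Mdm2 and Bax against them, with differences from -0.99 to -0.62.

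**Figure D2:**
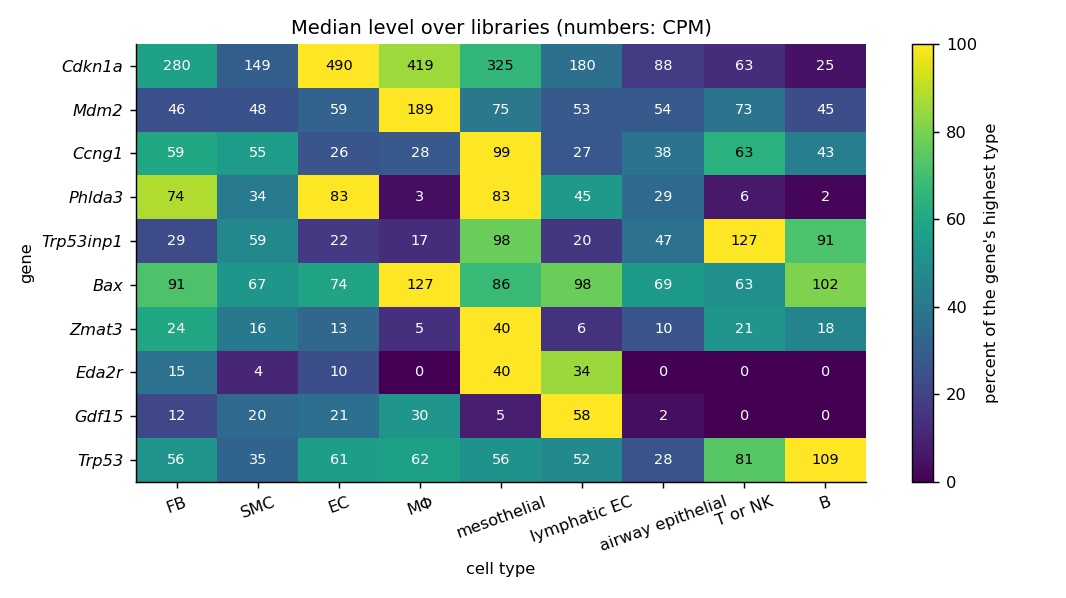
Level of each of the 10 genes (CPM) by cell type, over the libraries holding at least 50000 UMIs of that type. ECs had the highest median of Cdkn1a but not of each other target. The median of Ccng1 was highest in mesothelial cells and that of Trp53inp1 in T or NK cells.

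With age, none of the 7, 5 and 4 members that could be tested in FBs, ECs and MΦs passed. Eda2r, Gdf15 and Zmat3 were too low to be tested in any of them. In FBs the Cdkn1a level averaged 306 ± 146 CPM (SD, n = 4) in old and 128 ± 114 (n = 2) in young libraries, and the ranges overlapped. The log2 difference was 1.05 ± 0.67 (SE, adjusted p = 0.817, edgeR over 6798 genes, of which 0.0441% were called). It ran from 0.48 without the second young library to 2.99 without the first. Within the FB cluster that holds most young FBs, Cdkn1a stood at 507, 314, 195 and 381 CPM in the 20-, 24-, 28- and 27-month libraries and at 225 and 47.8 in the young ones (1.25 ± 0.66, adjusted p = 0.999 by edgeR). In ECs Cdkn1a averaged 395 ± 269 CPM in old and 370.5 ± 169 in young libraries, a difference of 0.18 ± 0.72 (adjusted p = 0.996, 0% of 5871 genes called). It changed sign to -0.29 without the 20-month library and to -0.16 ± 0.89 (adjusted p = 0.999 by edgeR) within the EC cluster that holds most young ECs, where the old libraries had 644, 556, 39.4 and 60.9 CPM and the young ones 496 and 266. MΦs went the other way, at 320.3 ± 192 CPM in old and 553 ± 78.2 in young libraries, a difference of -0.85 ± 0.63 (adjusted p = 0.827, 0% of 5833 genes called). Without the cluster led by mast cell genes it was -0.86 (adjusted p = 0.792 by edgeR), and it ran from -1.27 without the 20-month to -0.45 without the 28-month library. MΦs of the young and of the 20-, 28- and 27-month libraries lay mostly in different clusters, so age and MΦ cluster could not be told apart. No tested member had an unadjusted p under 0.05 by edgeR in these 3 types, and DESeq2 called none, with Mdm2 in MΦs at an unadjusted p of 0.044. With a covariate for the libraries that share barcodes, Mdm2 in ECs had an unadjusted p of 0.00466 (log2 2.84 ± 0.75, adjusted p = 0.99). Over all genes the unadjusted p by edgeR was under 0.05 for 347 of 5871 genes in ECs and 309 of 5833 in MΦs. DESeq2 called 1 and 8 genes in these types.

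Among the other targets the old and young libraries did not overlap for Ccng1 in FBs, for Eda2r and Mdm2 in ECs and for Bax and Mdm2 in MΦs. That is 1, 2 and 2 of 10 members, where 24.8%, 19.9% and 16.6% of all genes tested had no overlap. Eda2r was not tested. Among tested members only, the share was lower than that of all genes in FBs, about equal in ECs and higher in MΦs, where few members were tested. Ccng1 in FBs stood at 59.4, 40.1, 65.3 and 66.6 CPM in old and 24.5 and 0 in young libraries (log2 difference 1.62 ± 0.87, adjusted p = 0.817). The young values rest on 2 and 0 UMIs, and the count of 0 allows up to 143 CPM, above every old value. Without the second young library the difference was 1.14. Mdm2 differed in opposite directions, at 57.1, 127, 59.2 and 65.6 CPM in old against 17.5 and 22.8 in young ECs, each of which is 1 UMI (1.89 ± 0.88, adjusted p = 0.85), but lower in old than in young MΦs (-1.17 ± 0.58, adjusted p = 0.809, and -0.63 without the second young library). Eda2r was at 0 UMIs in the ECs of both young libraries, which allows up to 52.5 and 68.4 CPM, against 7.53 to 56.3 CPM in old ones. Over the members tested the median difference was 0.20 in FBs, 0.27 in ECs and -0.79 in MΦs, beside 0.20, 0.17 and 0.07 over all genes. The young libraries and the 24-month library share barcodes. Within these 3 the 24-month level of Cdkn1a was 2.35 times the young mean in FBs, 1.5 times in ECs and 0.615 times in MΦs.

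The share of cells with a Cdkn1a UMI was compared at equal depth, with every cell of at least 1000 UMIs thinned to 1000 UMIs. Over all cells it was 35.9%, 13.9%, 8.31% and 12.5% in the 20-, 24-, 28- and 27-month libraries and 13.2% and 6% in the young ones. Only the 20-month library lay above both young libraries by more than 1 percentage point. The difference of 8.06 percentage points had an exact two-sided permutation p = 0.4 (n = 4 and 2, smallest p possible 0.133), and it was 1.98 points without the 20-month library, 3.81 points at 500 UMIs per cell (p = 0.933) and 7.59 points without airway epithelial cells (p = 0.533). The libraries differ in the cells they hold, and the share over all cells mixes this with age. Airway epithelial cells made up 263 of the 350 cells of the second young library, 162 of 941 of the first and 353 of 926 at 24 months, ECs 592 of 1078 at 20 months and SMCs 2203 of 3509 at 27 months. In FBs the share was 26.8%, 25.7%, 8.88% and 14.5% in old libraries and 3.70% (1 of 27 cells) in the first young one, higher in 4 of 4 old libraries, a difference of 15.3 points (exact permutation p = 0.4, the smallest that 4 libraries against 1 allow). At 500 UMIs per cell, where both young libraries had enough FBs, it was 11.7% ± 6.09 in old and 7.70% ± 6.02 in young ones (SD, n = 4 and 2), a difference of 4.04 points (exact permutation p = 0.533), and without thinning it was 25.0 points. In MΦs the share was 38.1%, 25.1%, 10.0% and 19.7% in old and 40% and 27.8% in young libraries, a difference of -10.7 points with age (exact permutation p = 0.267), and of -19.2 points without the cluster led by mast cell genes (51.3% and 33.3% in young libraries, exact permutation p = 0.267). The MΦ clusters differed between these libraries, as given above. All 3 adjusted p-values were 0.4. Without thinning the difference in MΦs was 8.46 points, of the other sign, and over all cells it was 21.6 points. The share in B cells, taken as the reference for free RNA, was from 2.35% to 4.14%, so that the young FB share lies within it. The 20-month library, with 9 B cells, had no such share, and whether Cdkn1a in B cells is free RNA was not tested. In barcodes with 1 to 100 UMIs, which hold mostly free RNA, the Cdkn1a level was 184 CPM in the 20-month library and from 33.1 to 70.8 CPM in the other 5.

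**Figure D3:**
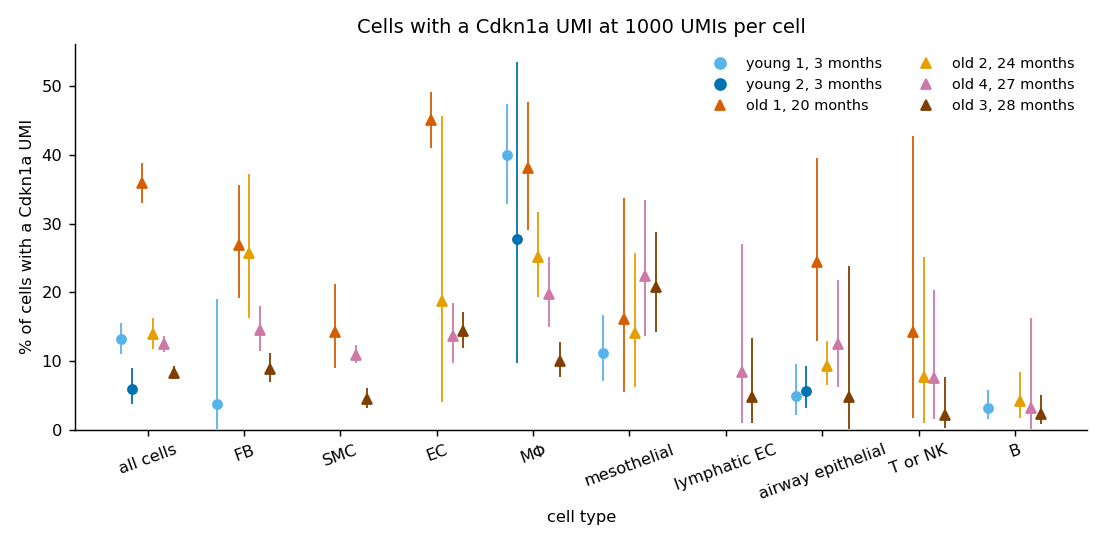
Share of cells (%) with at least 1 Cdkn1a UMI after thinning every cell to 1000 UMIs, by cell type and library, with exact 95% binomial intervals that cover counting error only. The 20-month library is above the other old libraries in ECs (45.1% against 13.6% to 18.8%), and old and young MΦs overlap.

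Whether the other targets vary with Cdkn1a from cell to cell was first asked at 1000 UMIs per cell. Cells with and without a Cdkn1a UMI were summed per library and compared with the library as a block, leaving Cdkn1a out. No other member passed in FBs, ECs or MΦs, of 6, 4 and 3 tested, where 0.0232%, 1.09% and 0.475% of all genes were called. DESeq2 called none either. Unadjusted, p was under 0.05 for Eda2r and Ccng1 in FBs and for no member in ECs or MΦs. The FB values were 2.21 ± 0.77 for Eda2r, 1.13 ± 0.43 for Ccng1 and 0.74 ± 0.38 for Phlda3 (log2, SE; adjusted p = 0.544, 0.713 and 1 by edgeR). Mdm2 in MΦs was at 0.57 ± 0.29 (adjusted p = 0.611). At this depth the counts were small. Eda2r, for instance, had 11 UMIs in the Cdkn1a-positive FBs of all 4 libraries together and 14 in the negative ones. With these counts Eda2r could enter the test only with the help of its positive cells, so its p is no support of its own. Without thinning, where a deeper cell is more often positive, the members called numbered 5 in FBs (0.829% of all genes called higher), 1 in ECs (1.36%), 0 in MΦs (0.891%), 1 in SMCs (0.342%) and 6 in mesothelial cells (0.641%). In FBs these were Trp53inp1 (1.01 ± 0.22), Zmat3 (0.93 ± 0.23), Ccng1 (0.72 ± 0.17), Phlda3 (0.65 ± 0.15) and Bax (0.63 ± 0.15).

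Most UMIs of the deeper cells lie outside that draw of 1000. The same cells, with the same Cdkn1a status, were therefore summed over the UMIs that were not drawn, which had no part in setting the status. This comparison was added after the data had been seen. In it Cdkn1a could be tested as well. In FBs it was 1124 CPM in positive against 266 in negative cells of the 20-month library, 356 against 61.2 at 24 months, 740.4 against 79.7 at 28 months and 878 against 119 at 27 months. Positive cells were higher in 4 of 4 libraries, although the 24-month values rest on a few UMIs. The difference was 2.81 ± 0.17 (log2, SE, adjusted p = 1.01e-55 by edgeR), so the status held beyond the draw.

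In these FBs 5 of the 9 other members were also higher in Cdkn1a-positive cells, where 0.47% of 9155 genes were called higher. Eda2r, 1 of these 5, entered the test through its positive cells, as given below. Trp53inp1 stood at 74.1 CPM in positive against 34.0 in negative FBs at 20 months, 90.7 against 23.4 at 28 months and 70.9 against 18.4 at 27 months. Its difference was 1.85 ± 0.28 (adjusted p = 4.96e-08). Phlda3 stood at 160.5 against 84.9, 184 against 58.2 and 176 against 91.4 CPM in the same libraries, a difference of 1.23 ± 0.20 (adjusted p = 3.66e-07). Both genes were higher in the positive cells of all 3 libraries. The 24-month library, whose cells held few UMIs beyond the draw, had no UMI of either.

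The death gene Bax was at 222 against 142 CPM at 20 months, 188 against 84.4 at 28 months and 144 against 54.1 at 27 months, a difference of 1.14 ± 0.20 (adjusted p = 4.4e-06). Zmat3 was at 24.7 against 5.66, 60.4 against 19.2 and 61.3 against 21 CPM (1.59 ± 0.31, adjusted p = 0.000118). Eda2r was at 24.7 against 5.66, 41 against 11 and 40.2 against 9.98 CPM (1.92 ± 0.40, adjusted p = 0.000399). These 3 targets too were higher in positive cells of each of the 3 libraries that held any of their UMIs, although the 20-month values of Zmat3 and Eda2r rest on 2 UMIs in positive and 1 in negative cells.

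The remaining 4 members did not pass in FBs. Gdf15 differed by 1.24 ± 0.47, Ccng1 by 0.76 ± 0.23 and Mdm2 by 0.68 ± 0.26 (adjusted p = 0.39, 0.117 and 0.426 by edgeR). Trp53, whose protein is controlled mainly through its stability, differed by -0.74 ± 0.31 (adjusted p = 0.552). It was at 86.4 CPM in positive and 56.6 in negative cells at 20 months, and lower in positive cells at 28 months (32.4 against 58.0) and 27 months (23 against 47.8). The median over the 8 targets other than Cdkn1a was 1.24, beside -0.01 over all genes tested. That median includes Eda2r, which entered through its positive cells. Most of the evidence came from 2 libraries. No member was called without the 28-month library and 1 (Phlda3) without the 27-month library, and DESeq2 called Trp53inp1 alone. Their sizes moved less than their calls. With any 1 library left out, the lowest difference was 1.72 for Trp53inp1, 1.54 for Zmat3, 0.99 for Bax and 0.91 for Phlda3, and Eda2r could not be tested without the 20-, 28- or 27-month library.

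**Figure D4:**
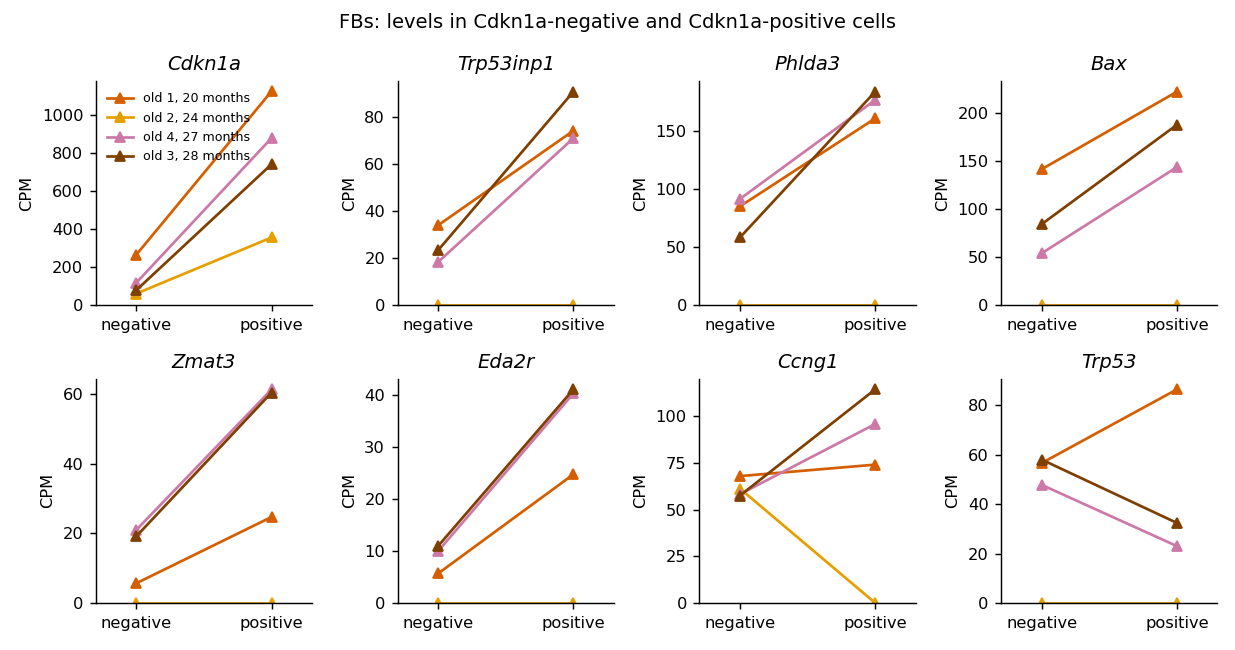
Level of each gene (CPM) in Cdkn1a-negative and Cdkn1a-positive FBs of each old library, over the UMIs outside the draw, with a line joining the cells of 1 library. Lines rise in the 20-, 28- and 27-month libraries for Trp53inp1, Phlda3, Bax, Zmat3 and Eda2r, and the 24-month library, with few UMIs outside the draw, sits at 0 for most genes.

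Depth and markers of other cells were set beside the status. The median UMIs of positive and negative FBs were 3146.5 and 2821 at 20 months, 6495 and 6607 at 28 months and 6522 and 5794 at 27 months. The 6 mesothelial markers summed to 0, 25.9 and 17.2 CPM in positive and 17.0, 12.7 and 18.4 CPM in negative FBs of the 20-, 28- and 27-month libraries, and the 10 MΦ markers to 37.0, 84.2 and 44.1 against 28.3, 91.4 and 44.1 CPM. The 6 pericyte markers were lower in positive FBs of all 3 libraries (136, 212 and 362 against 232, 321 and 483 CPM). The 10 EC markers summed to 247, 231 and 190 against 345, 115 and 182 CPM, higher in positive FBs at 28 and 27 months. The part of pericyte or EC RNA in these differences was not tested. The 10 FB markers summed to 31449, 32728 and 36775 against 31259, 35946 and 41246 CPM, lower in positive FBs at 28 and 27 months. None of the tested markers of FBs (10), SMCs (4) or ECs (3) was called in this fit. With each FB cluster of each library as its own block, 5 members were called as well. Clusters of the same library are not independent replicates, and that fit counts them as separate blocks. Its calls are thus no further support beyond the libraries.

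SMCs showed this for Phlda3 only. It stood at 58.2 CPM (1 UMI) in positive against 46.6 in negative SMCs at 20 months, 109.8 against 30 at 28 months and 70.6 against 28.3 at 27 months. The difference was 1.38 ± 0.21 (adjusted p = 3.64e-07 by edgeR), where 0.0627% of 9573 genes were called higher, and it was not called by DESeq2 or without the 28- or the 27-month library. The other 7 tested members of SMCs ranged from 0.03 for Trp53 to 0.60 ± 0.20 for Bax, and none passed. Eda2r was too low to be tested, at 16.9 CPM in positive against 1.81 in negative SMCs at 28 months and 20.3 against 2.95 at 27 months, but 0 against 3.33 (1 UMI) at 20 months. Of the FB markers tested, 1 was called higher in the positive SMCs, and the part of FB RNA in this result was not tested. The 10 SMC markers were lower in positive SMCs at 20, 28 and 27 months (45013, 33795 and 29536 against 55874, 35373 and 32367 CPM), and none was called.

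Mesothelial cells, which line the surface of the tissue, showed it for Zmat3 and Ccng1. Zmat3 stood at 16 CPM in positive against 49.1 in negative cells at 20 months, 146 against 34.7 at 28 months, 165 against 56.9 at 27 months and 93.7 against 0 in the first young library. The positive cells were higher in 3 of 4 libraries, by 1.64 ± 0.36 (adjusted p = 0.0071 by edgeR, where 0.155% of 10323 genes were called higher). Ccng1 was at 112 against 88.4, 280.5 against 112, 289 against 132 and 46.9 against 30.2 CPM in the same order, higher in 4 of 4 libraries (1.08 ± 0.28, adjusted p = 0.0469). For both genes the positive cells of the first young library held a few UMIs only, as did those of 20 months for Zmat3. Phlda3 (1.14 ± 0.32) and Trp53inp1 (1.02 ± 0.29) did not pass (both adjusted p = 0.0958). DESeq2 called neither Zmat3 nor Ccng1, and no member was called without the 28- or the 27-month library.

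In ECs and MΦs only Cdkn1a itself passed. In ECs it was 1060.5 CPM in positive against 472 in negative cells at 20 months, 605 against 78.5 at 28 months and 353 against 136 at 27 months (1.84 ± 0.32, adjusted p = 0.0453, not called without the 27-month library). The other EC members were at 0.70 ± 0.24 for Bax, 0.66 ± 0.27 for Mdm2, 0.52 ± 0.22 for Phlda3, 0.42 ± 0.39 for Ccng1 and -0.06 ± 0.28 for Trp53 (adjusted p from 0.241 to 0.983), where 0.44% of 7043 genes were called higher. Unadjusted, p was under 0.05 for 3 of these, Bax, Mdm2 and Phlda3. In MΦs Cdkn1a differed by 1.31 ± 0.16 (adjusted p = 3.03e-12), Bax by 0.03 ± 0.22 and Mdm2 by 0.27 ± 0.22 (both adjusted p = 1), where 0.214% of 8425 genes were called higher. Without the cluster led by mast cell genes, Cdkn1a differed by 1.32 and no other member was called. Positive MΦs held more UMIs per cell than negative ones at 28 months (median 9553.5 against 6086). DESeq2 called no other member in either type. The 10 FB markers were lower in positive ECs of all 3 libraries (1427, 780 and 878 against 2267, 2299 and 1463 CPM at 20, 28 and 27 months), 1 of the 7 tested was called lower, and their part in the Cdkn1a status of ECs was not tested.

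**Figure D5:**
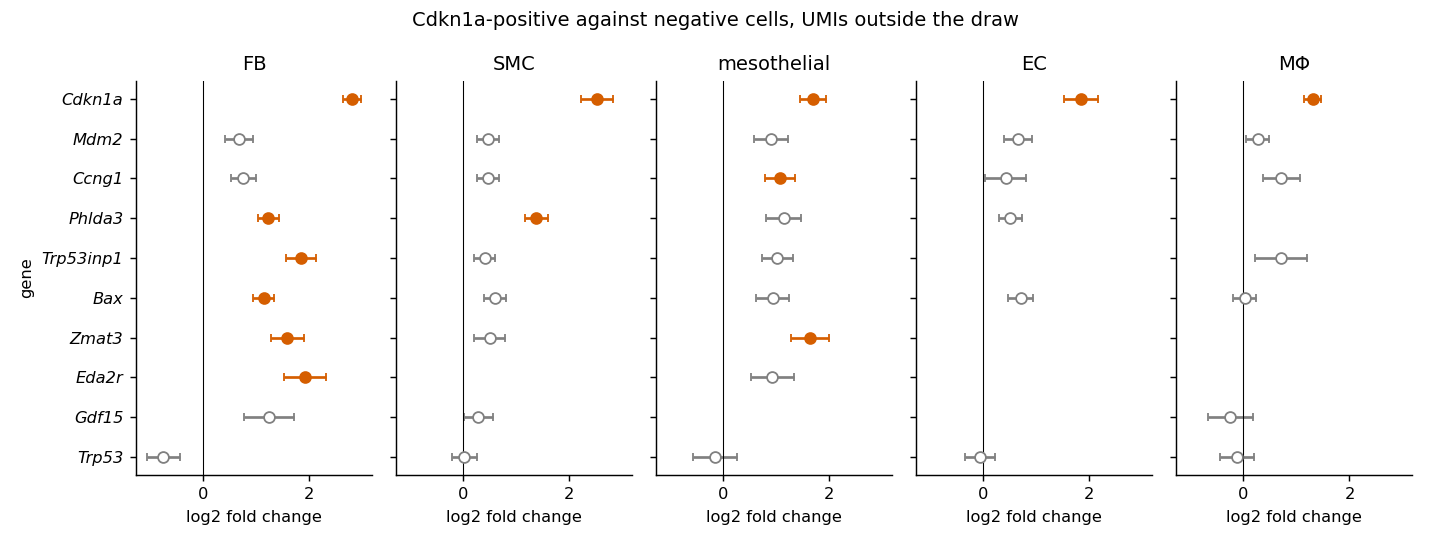
Log2 difference between Cdkn1a-positive and Cdkn1a-negative cells for each gene and cell type, over the UMIs outside the draw, with bars of 1 SE and filled orange points for an adjusted p under 0.05. Apart from Cdkn1a, 5 genes passed in FBs, 1 in SMCs, 2 in mesothelial cells and none in ECs or MΦs. In FBs, Eda2r entered the fit through its positive cells.

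Passing in 1 cell type and not in another does not show that the types differ, so the difference itself was tested over the 5 types. It passed for Cdkn1a alone (adjusted p = 0.00778 by edgeR), which was separated more in FBs than in MΦs, by 1.43 (adjusted p = 0.00487). For Trp53inp1 the adjusted p was 0.0893, and no other member passed. A larger difference of these targets in FBs than in ECs or MΦs thus did not pass.

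Of the further p53 targets listed, 20 of 27 could be tested in FBs, and 2 were called higher in Cdkn1a-positive cells. These were Sesn2, which encodes a stress-induced inhibitor of mTORC1 signalling (2.97 ± 0.47, adjusted p = 2.86e-07), and Rps27l, which encodes a ribosomal protein paralog (0.94 ± 0.17, adjusted p = 7.82e-06). With a library left out, the lowest and highest difference of Sesn2 were the same value (3.07), since it mostly fell below the filter for testing. A gene can meet that filter in positive cells alone, so the call of Sesn2 is no support of its own. Sesn2 was also on the list of integrated stress genes (Atf4, Ddit3 and others). No other gene of that list, and no listed regulator of p53, was called by Cdkn1a status. Of the further targets, none was called lower in FBs, 14 were above 0 and the median was 0.18. In mesothelial cells 1 of 25 passed, the kinase gene Plk2 (2.21 ± 0.55, adjusted p = 0.0318), and the median was 0.56. None passed of 16 in each of SMCs, ECs and MΦs, with medians of 0.06, 0.10 and 0.17. Of 19 immediate early genes, which tissue digestion is known to raise, 1 was called higher in FBs (Ier3, 0.72 ± 0.18, adjusted p = 0.0154) and 1 in MΦs (Nr4a1, 0.64 ± 0.17, adjusted p = 0.0345). The call of Ier3 was lost without the 20-, 28- or 27-month library, and that of Nr4a1 without the 20-, 24- or 27-month or the first young one, or without the cluster led by mast cell genes. In ECs all 19 were above 0 with a median of 0.40 and none was called, and their part in the Cdkn1a status of ECs was not tested.

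Across 39 profiles, each 1 cell type of 1 library, the correlation of Cdkn1a with its fellow targets depended on how the profiles were centred. The profiles share 6 libraries and 9 cell types. On the scale of log2(CPM + 10), with each profile centred on its cell type, Pearson's r with Cdkn1a was 0.35 for Gdf15, 0.20 for Eda2r and Phlda3, 0.13 for Mdm2 and Bax, -0.09 for Ccng1, -0.14 for Zmat3 and -0.19 for Trp53inp1, beside a median of -0.18 over 7925 genes. With the library centred as well, r was 0.42 for Ccng1, 0.36 for Bax, 0.29 for Phlda3, 0.26 for Eda2r, 0.25 for Zmat3, 0.21 for Trp53inp1, 0.17 for Mdm2 and -0.08 for Gdf15, beside a median of -0.04. Ccng1, Zmat3 and Trp53inp1 thus changed sign, as did Gdf15.

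Depth and the 20-month library moved these values too. Over the 36 profiles of cells thinned to 1000 UMIs, centred on cell type, r was 0.46 for Gdf15, 0.38 for Phlda3, 0.30 for Ccng1, 0.22 for Mdm2 and Zmat3, 0.07 for Eda2r, 0.00039 for Bax and -0.04 for Trp53inp1, beside a median of -0.05. Without the 20-month library, unthinned, Gdf15 fell to 0.12, Phlda3 to -0.07 and Bax to -0.10, and Trp53inp1 was at 0.07. Trp53 had r = 0.58, 0.39 with the library centred as well, 0.49 without the 20-month library and -0.09 over the thinned cells. The values are descriptions, since profiles of 1 library are not independent.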

How the data were processed

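The values the authors deposited are raw UMI counts per gene and barcode for every barcode of the 6 libraries, with no normalization. Per the study's methods and the submitters' processing notes, reads were trimmed with cutadapt and mapped and counted with STARsolo on GRCm38.p6. Versions of these tools were not given in the sources used here. The members and gene lists were chosen with earlier results of these data known.

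Cells had no fewer than 500 UMIs and 300 genes, and up to 20% of their UMIs were mitochondrial. Doublets were removed per library. Cells were clustered together in scanpy 1.11.5 (2000 variable genes, 40 principal components, 15 neighbours, leidenalg 0.10.2 at a resolution of 1.5, no batch correction) without the members and pathway lists. A cluster was named for the type with most of its markers raised 2-fold or more, if these exceeded 40% and numbered 3 or more, and stayed unnamed if its median UMIs per cell were under 0.333 times those of the library with none of its markers among its 10 leading genes. Libraries with under 10 cells of a type were left out of it.

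Counts were summed per library and type. Genes found in over 5% of cells in 3 or more of the sums of a fit entered edgeR 4.0.16 in R 4.3.3 (robust quasi-likelihood fit with TMM factors, p adjusted over all genes tested by Benjamini-Hochberg, threshold 0.05). By age these sums are libraries. Between types they are types of libraries. By Cdkn1a status, positive and negative cells of a library are separate sums, so a gene could enter through positive cells alone. For the comparison by Cdkn1a status, libraries with at least 20 cells on each side were used, or 10 with the UMIs outside the draw, and the library was the block, since both sums come from 1 library. Single values per library were compared by exact enumeration of all regroupings. The edgeR fits of FBs by age and by Cdkn1a status were tested on simulated counts with the same dispersion for every gene. That test does not cover the spread between the real libraries or the gene filter, so it is no support for the calls. The precision of a level follows its depth, and 3 UMIs, the limit set by a count of 0, were worth 0.568 CPM in FBs of the 28-month library and 143 CPM in those of the second young one. Intervals and limits cover counting error only.

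Alternatives were other depths of thinning, DESeq2 1.42.0, gene filters, no TMM factors, other cell filters, doublets kept and leaving out each library. Added after the data had been seen were the UMIs outside the draw, MΦs without the cluster led by mast cell genes, FBs and ECs of the cluster with most young cells, and all cells but airway epithelial ones. The design named SMCs and perivascular MΦs for the age comparison. SMCs of the 2 ages lay in different clusters and perivascular MΦs were named in 2 old libraries only, so all MΦs were used and SMCs were not tested. No library states that it pools animals. The p-values of edgeR use a spread between these libraries that is estimated with sharing across genes. In the fits by Cdkn1a status the shared part weighs most. Their very small p-values thus do not measure how each gene by itself varied between so few libraries. Each SE given with edgeR is the size of the log2 difference divided by the square root of its F statistic. The same limit holds for these SEs. Genes named beyond the 10 are the 5 most like Cdkn1a, up to 4 rises and 4 falls per cell type by Cdkn1a status at 1000 UMIs, and listed pathway genes past the threshold. Promoter windows came from RefSeq, and coordinates of genes are not used here. Figures were drawn with matplotlib 3.10.9.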

Additional observations from a re-analysis of the deposited data

Results flagged for a closer look

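In groups of 4 old libraries, 42 sets of values were tested for a library that stands apart, and 5 were found, where chance gives about 1 in 20. The 20-month library held 244 CPM of Gdf15 in ECs against 5.38 to 21.1 in the other old libraries, and 82.7 CPM in FBs against 2.65 to 12.7. In its ECs 45.1% of cells had a Cdkn1a UMI at 1000 UMIs, against 13.6% to 18.8%. The 24-month library held 56.3 CPM of Eda2r in ECs against 7.53 to 11.2, and 127 CPM of Mdm2 against 57.1 to 65.6. Its ECs held 79 Cdkn1a UMIs in all.

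The difference in Cdkn1a between positive and negative cells, over the UMIs outside the draw, varied between cell types (adjusted p = 0.00778 by edgeR for the interaction, positive cells higher in every library of the 5 types).

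In barcodes of 1 to 100 UMIs, which enter no comparison, Cdkn1a reached 184 CPM in the 20-month, 41.4 in the 24-month, 57.2 in the 28-month and 70.8 in the 27-month library, above the higher of the young values (41.1 CPM).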

How the results depend on the processing

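Counts of calls moved most with the depth per cell, the block and the libraries kept. Genes called with age numbered 3 in FBs, and 0 with filterByExpr, with a covariate for the libraries that share barcodes, with cells thinned to 500 UMIs, of at least 1000 UMIs or of 1 FB cluster, and 23 with no gene filter. They numbered 0 in ECs (1 with DESeq2, 8 with no filter) and 0 in MΦs (8 and 36). By Cdkn1a status at 1000 UMIs, genes called in FBs numbered 1, but 165 unthinned, 17 at 2000 UMIs, 0 with DESeq2, 9 with no filter, 7 in a second draw and 9 within clusters. In ECs they numbered 44, but 196 unthinned, 26 without TMM, 7 with DESeq2, 28 with no filter, 5 in a second draw and 0 within clusters. In MΦs they numbered 21, but 113 unthinned, 0 at 2000 UMIs, 0 with DESeq2, 7 in old libraries and 12 in a second draw. Without the replicate block on the library, 0 genes were called in each of these types. Unthinned, 5 members were called in FBs and 1 in ECs (Gdf15). Over the UMIs outside the draw, the members called besides Cdkn1a numbered 5 in FBs (1 with DESeq2), 1 in SMCs (2 in a second draw, 0 with DESeq2) and 2 in mesothelial cells (4, 0, and 1 within clusters), and without the replicate block 0 in each of these types. Between types, members called fell to 1 for FBs and SMCs and 1 for FBs and ECs and 3 for SMCs and ECs with thinned cells, and to 2 for FBs and SMCs with doublets kept. Cdkn1a with age in ECs ran from -0.29 to 0.75 over the libraries left out. Reversed values were Cdkn1a with age in ECs (-0.29 without the 20-month library, -0.05 without the 24-month -0.29 without the second young library and -0.16 within 1 EC cluster), the MΦ share (8.46 points unthinned) and Cd180 in MΦs (0.040 at 2000 UMIs). The cause was not tested.

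Leaving out each library in turn gave from 0 to 2 genes called with age in FBs and 0 in ECs and MΦs. By status at 1000 UMIs it gave from 0 to 2 genes in FBs, 0 to 75 in ECs and 0 to 22 in MΦs. Members called outside the draw ran from 0 to 5 in FBs, 0 to 1 in SMCs and 0 to 4 in mesothelial cells. The share over all cells ran from 1.98 to 11.6 points, that of FBs from 12.7 to 18.6 and that of MΦs from -16.8 to -4.56. Between types the members called ran from 2 to 5 (FBs and SMCs), 3 to 5 (FBs and ECs), 2 to 4 (FBs and perivascular MΦs), 4 to 6 (SMCs and ECs, and SMCs and perivascular MΦs) and 1 to 5 (ECs and perivascular MΦs). No paired analysis was possible because the replicate numbers of old and young libraries mark no shared animal, batch or day. Depth limits the young FBs most, with 17 and 1 Cdkn1a UMIs in all.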

Other observations

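At 1000 UMIs per cell no listed p53 target was called with Cdkn1a status, and other genes were. In ECs Tcf15 (2.39 ± 0.37), Gpihbp1 (2.07 ± 0.35), Tcim (2.0 ± 0.38) and Lpl (1.97 ± 0.36) were higher in Cdkn1a-positive cells (log2, SE; adjusted p from 1.3e-05 to 0.000778 by edgeR). Gpihbp1 anchors lipoprotein lipase, the product of Lpl, to capillary endothelium. Rbms3 (-1.54 ± 0.31), Pacs1 (-1.51 ± 0.40), Gpc6 (-1.50 ± 0.28) and Pkhd1l1 (-1.38 ± 0.31) were lower. No gene was called in ECs when each cluster of each library was its own block. In FBs the chemokine gene Ccl2 was the only gene called (1.57 ± 0.29, adjusted p = 0.000193). In MΦs the NF-κB pathway genes Tnfaip3 (0.77 ± 0.21) and Nfkbiz (0.65 ± 0.17), the stress gene Gadd45b (0.94 ± 0.23) and the fibronectin gene Fn1 (0.76 ± 0.17) were higher (adjusted p from 0.00601 to 0.0374). Hars (-2.35 ± 0.58), Cd180 (-2.14 ± 0.58), Gpcpd1 (-1.32 ± 0.34) and Timd4 (-1.25 ± 0.32) were lower in them.

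The genes whose level over the 39 profiles, centred on cell type, was most like that of Cdkn1a were Eif4a1 (r = 0.81), Mepce (0.73), Sertad1 (0.70), Icam1 (0.70) and Gm19810 (0.69). They are given as a description, with no test, and none is a member.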
